A study of Homo sapiens with 8 samples.

Results

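The replication-dependent histone genes were examined in RNA sequencing of the human colon cancer line HCT116. They are the protein-coding genes whose GENCODE release 29 symbols start with HIST1H, HIST2H, HIST3H or HIST4H, and 71 of the 40295 gene IDs in the deposited table met that rule. They comprised 6 H1, 17 H2A, 18 H2B, 15 H3 and 15 H4 genes. The cluster named HIST1 lies on chromosome 6 and held 55 of them, the clusters named HIST2 and HIST3 on chromosome 1 held 12 and 3, and HIST4H4 lies alone on chromosome 12. As background, the core histones H2A, H2B, H3 and H4 wrap DNA into nucleosomes, and the linker histone H1 binds where DNA enters and leaves them. Most of these genes are transcribed during S phase, when new DNA has to be packaged. Their mRNAs usually end in a conserved stem-loop instead of a poly(A) tail, which the stem-loop binding protein SLBP recognises, and they are degraded when replication stops. Libraries made from rRNA-depleted total RNA, as here, do not depend on a poly(A) tail.

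Wild-type HCT116 cells were compared with a line derived from them in which CRISPR-Cas9 knock-in had introduced MED12 E33Q; MED12 belongs to the kinase module of Mediator. Each line was left untreated (0 h) or kept for 24 h with interferon gamma (IFN-γ) at 5 ng/ml, with 2 libraries in each of the 4 groups. The submitters call the replicates biological but do not say whether they were separate cultures, so p-values measure only the spread between these libraries. The knock-in is represented by 1 line, so E33Q and other differences of that line cannot be told apart, and neither can IFN-γ and the 24 h of culture that went with it. In bulk RNA, fewer cells in S phase and less histone mRNA per cell cannot be told apart. Libraries held 20901909 to 28045842 estimated counts, of which the 71 genes took 0.109 to 0.156%. The 6 epithelial markers were detected in every library at a summed 2281 to 5122 CPM (counts relative to library size, normalised with edgeR's TMM factors), against 3.26 to 6.78 CPM for the 4 fibroblast markers. The immunoglobulin genes JCHAIN, IGKC, IGHA1 and IGHA2, which mark plasma cells, stood at 238.3 to 345.6 CPM in both untreated wild-type libraries and in replicate 2 of both knock-in groups, and at 0 to 0.183 CPM in the other 4. Wild-type comparisons therefore set libraries with these counts against libraries without them.

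Of the 71 genes, 46 passed the filter on low counts and were tested, among them 3 H1, 14 H2A, 12 H2B, 9 H3 and 8 H4 genes. A further 12 had counts in some library, at most 11, and were not tested: HIST1H1A, HIST1H1B, HIST1H2AL, HIST1H2BA, HIST1H2BB, HIST1H2BG, HIST1H3C, HIST1H3G, HIST1H4B, HIST1H4D, HIST1H4I and HIST3H3. The remaining 13 were listed at 0 in all 8 libraries: HIST1H1D, HIST1H2AA, HIST1H2AE, HIST1H2BH, HIST1H2BI, HIST1H2BK, HIST1H3F, HIST1H3I, HIST1H4F, HIST1H4G, HIST1H4K, HIST1H4L and HIST2H3PS2. A listed 0 is an estimate and not a measured absence, and 11 of the 13 have a GENCODE model with coding sequence only. For HIST1H2BK, HIST1H4K and HIST2H3PS2 over 50% of the 31-base words of their transcripts also occur in another gene.

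Shared sequence touched many of the tested genes, because a read that fits several near-identical copies is divided among them by the estimate. HIST2H3A and HIST2H3C, duplicate H3 genes, had identical counts in every library and stand for 1 measurement. HIST2H2AA3 and HIST2H2AA4 share all words of the smaller gene, as do HIST1H4J and HIST1H4K, and HIST2H4A and HIST2H4B share 98.56%. The pairs HIST1H2BN with HIST1H2AK and HIST1H3J with HIST1H2AM overlap over the whole and over 87.05% of the smaller gene. Levels of single members of these pairs are therefore uncertain, whereas 15 tested genes, HIST1H4E, HIST1H3H, HIST1H1C and HIST1H1E among them, had under 10% of their words in any other gene. A low share of words does not exclude shared counts: HIST3H2A, also among the 15, had the same counts as an unnamed ID.

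The 3′ stem-loop was looked for in the GENCODE transcripts on the sense strand, as a 16-base element, because it is the feature that sets these mRNAs apart. It was found in 32 of the 71 genes: 7 H2A, 11 H2B, 6 H3, 8 H4 and no H1 gene. The models of 33 genes end with the coding sequence and cannot show it. The elements of the genes that the results below turn on are given here as DNA from GRCh38 transcripts, 5′ to 3′, with the stem-loop in capitals and 5 bases on each side.
HIST1H4E: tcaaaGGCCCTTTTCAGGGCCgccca
HIST2H4A: ccaaaGGCCCTTTTTAGGGCCgacca
HIST1H2AG: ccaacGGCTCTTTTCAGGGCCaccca
HIST1H2BC: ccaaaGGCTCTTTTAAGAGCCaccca
HIST1H2BD: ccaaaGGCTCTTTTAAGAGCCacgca
HIST2H2BF: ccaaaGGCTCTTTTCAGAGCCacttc
HIST1H3H: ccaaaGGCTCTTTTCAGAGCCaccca
HIST2H3C: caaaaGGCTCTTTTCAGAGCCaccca
All 8 H4 genes with a match carried a stem that opens with GGCCC, in 5 of them the form of HIST1H4E and in 3 that of HIST2H4A. The H2A, H2B and H3 genes with a match opened with GGCTC. HIST1H3H and HIST2H3C have the same 16 bases, as does HIST2H2BF.

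H4 genes encode nearly the same protein, and their mRNAs are told apart by synonymous bases. Of the 15 H4 genes, 14 have a coding sequence of 312 bases, and pairs of these differed at 0 to 65 positions with a median of 51. The first 60 coding bases of the H4 genes with the highest counts are shown to make this visible, with capitals where a gene differs from HIST1H4E.
HIST1H4E: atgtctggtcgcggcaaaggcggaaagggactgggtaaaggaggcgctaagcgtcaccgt
HIST1H4C: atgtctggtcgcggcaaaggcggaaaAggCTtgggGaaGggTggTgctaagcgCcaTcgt
HIST2H4A: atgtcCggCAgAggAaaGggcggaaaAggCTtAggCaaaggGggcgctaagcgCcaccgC
HIST2H4B: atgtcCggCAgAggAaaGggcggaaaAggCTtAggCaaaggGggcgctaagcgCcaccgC
HIST1H4C differed from HIST1H4E at 60 of 312 positions, and HIST2H4A and HIST2H4B, which are identical to each other here, at 56.

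Promoter windows from RefSeq (GRCh38.p14, 300 bases around the start) matched 63 of the 71 genes; HIST1H2AH, HIST1H2BE, HIST1H2BN, HIST1H3I, HIST1H3J, HIST1H4A, HIST1H4C and HIST1H4I had no matching entry. The letters TATAAA, searched on both strands like all motifs here, were in 44 of 63 windows, against 11.5% of all 35116 RefSeq windows. CCAAT was in 53 of 63, in every H1, H2A, H2B and H3 window and in 2 of 12 H4 windows, against 34.6% of all. The octamer ATTTGCAT, a POU2F1 motif, was in 13 of 16 H2B and 11 of 16 H2A windows and in none of the others, against 1.77% of all. H2A and H2B genes often lie head to head, so their windows can overlap. AAACACA, known as the H1 box, was in all 6 H1 windows and 9 of 63 in all, against 5.64%. TTCNNNGAA, the form of an IFN-γ-activated site, was in 1 of 63 windows, an H1 gene's, against 7.66% of all; a match here is a description of letters and not a binding site. The stretches upstream of the start are printed for a highly counted H1 gene and for the H4 and H2B genes that fell in both lines, with these motifs in capitals on either strand.
HIST1H1E, chr6:26156079-26156328, plus strand: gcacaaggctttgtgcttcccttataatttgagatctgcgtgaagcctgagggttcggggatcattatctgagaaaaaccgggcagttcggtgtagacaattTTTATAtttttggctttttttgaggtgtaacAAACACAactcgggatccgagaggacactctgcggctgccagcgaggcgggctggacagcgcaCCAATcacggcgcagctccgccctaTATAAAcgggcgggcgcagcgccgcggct
HIST1H4E, chr6:26204360-26204609, plus strand: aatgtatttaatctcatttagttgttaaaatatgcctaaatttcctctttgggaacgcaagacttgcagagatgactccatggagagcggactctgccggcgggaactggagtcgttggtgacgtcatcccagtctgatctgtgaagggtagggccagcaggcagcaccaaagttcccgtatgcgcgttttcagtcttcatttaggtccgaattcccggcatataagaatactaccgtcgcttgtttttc
HIST1H2BC, chr6:26123927-26124176, minus strand: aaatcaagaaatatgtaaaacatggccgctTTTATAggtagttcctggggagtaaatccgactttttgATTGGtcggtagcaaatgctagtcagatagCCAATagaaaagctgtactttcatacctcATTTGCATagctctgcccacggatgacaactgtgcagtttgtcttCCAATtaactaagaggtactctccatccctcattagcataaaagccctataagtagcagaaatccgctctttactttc
The HIST1H4E stretch holds none of the 5 motifs and is in lower case throughout.

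Before IFN-γ, the linker histone genes HIST1H1E and HIST1H1C stood far above every core histone gene. Per kilobase of transcript, to allow levels of different genes to be compared, HIST1H1E averaged 509.4 and HIST1H1C 469.7 CPM per kb over all 8 libraries, treated ones included. On that average the next levels were 61.8 CPM per kb for HIST1H4C, 54.4 for HIST1H2AM and 53.8 for HIST1H3B. Together HIST1H1E and HIST1H1C took 40.7 to 49.6% of all histone counts in the untreated libraries. Over all 8 libraries, the core genes with the most counts were HIST1H2AG and HIST1H2AC for H2A, HIST1H2BN and HIST1H2BC for H2B, HIST1H3H and HIST2H3C for H3, and HIST2H4A and HIST1H4E for H4. The order differed in untreated cells. There HIST1H2BC averaged 40.0 CPM in wild-type and 43.7 in knock-in cells, against 36.0 and 32.1 for HIST1H2BN. HIST1H3B averaged 34.3 and 32.0 CPM, against 27.5 and 28.1 for HIST2H3C.

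After 24 h of IFN-γ the summed level of core histone mRNA was lower in both lines. The H4 sum fell by the most, though the median of the tested H4 genes did not in wild-type cells. H1 sums overlapped at TMM scaling and were lower with ERCC scaling. With the GC trend alone removed the median of the tested H1 genes was below 0 in both lines as well (-0.48 and -1.02). The 65 core genes summed to 666.6 and 975.7 CPM in untreated and 439.9 and 470.8 CPM in treated wild-type libraries, a treated-to-untreated ratio of 0.555. In knock-in cells they summed to 684.9 and 898.2 CPM untreated and 372.2 and 435.4 CPM treated, a ratio of 0.51. Both treated libraries of each line lay below both untreated ones. The H4 sums were 158.2 and 210.4 CPM untreated and 73.4 and 70.2 CPM treated in wild-type cells, and 151.9 and 191.1 CPM untreated and 54.1 and 61.4 CPM treated in knock-in cells. Their ratios were 0.389 and 0.337, the lowest of the 5 types in either line. Median log2 fold changes of the tested genes in wild-type cells were -0.64 for H4, -1.01 for H2A, -0.76 for H2B and -0.56 for H3. With the GC and length trend removed they were -0.20, -0.28, -0.41 and -0.61, so the H4 median then fell the least. In knock-in cells the H4 median was the lowest in both fits (-1.54, and -0.90 with the trend removed). The wild-type and knock-in ratios were 0.589 and 0.554 for H2A, 0.577 and 0.452 for H2B, and 0.647 and 0.647 for H3, again with no overlap between treated and untreated libraries. H1 sums were 607.4 and 672.4 CPM untreated and 574.1 and 764.5 CPM treated in wild-type cells, and 587.7 and 890.1 CPM untreated and 663.2 and 736.5 CPM treated in knock-in cells. These H1 values overlapped, with ratios of 1.05 and 0.947. H1 thus took 40.8 to 49.8% of histone counts in untreated and 56.6 to 64.0% in treated libraries. Scaling to the ERCC spike-in RNA, whose share of counts was 0.11 to 0.141% untreated and 0.228 to 0.271% treated, lowered every ratio, to 0.325 and 0.353 for the core genes and to 0.596 and 0.656 for H1. On that scale the H1 sums of treated and untreated libraries did not overlap either.

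**Figure D1:**
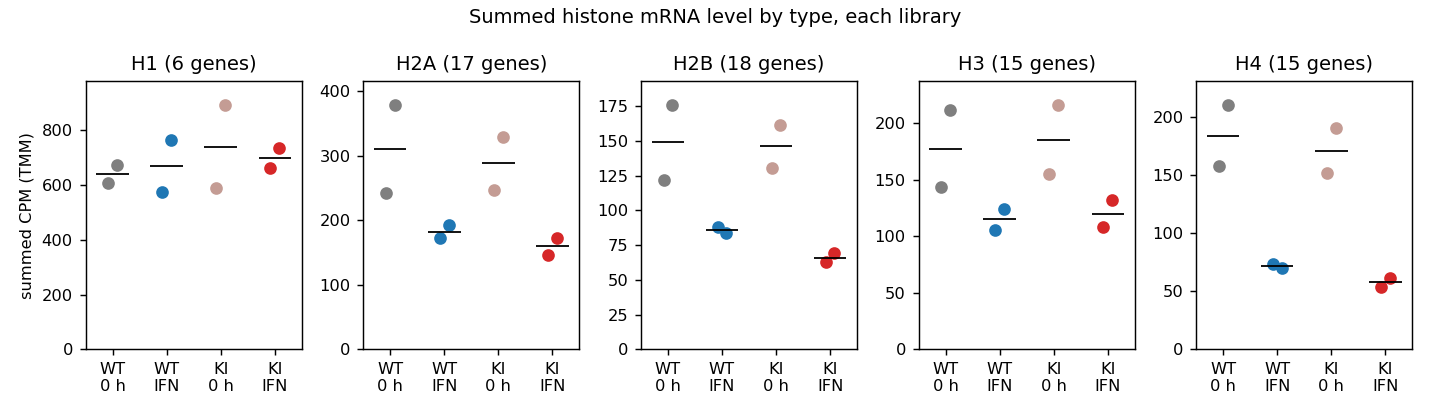
Summed TMM-scaled CPM of the genes of each histone type (y axis) in the 4 groups (x axis; WT wild-type, KI knock-in, IFN 24 h with IFN-γ); each point is 1 library and each bar the mean of 2. Treated libraries lie below untreated ones for H2A, H2B, H3 and H4, with H4 ratios of 0.389 and 0.337, and overlap with them for H1 at this TMM scaling; with ERCC scaling the H1 ratios are 0.596 and 0.656.

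Gene by gene in wild-type cells, 22 of the 46 tested histone genes fell and 0 rose at an adjusted p under 0.05 (edgeR's quasi-likelihood test over all tested genes); of all 16519 tested genes 20.8% fell and 17.1% rose. At an unadjusted p under 0.05, 24 were lower and 0 higher, against 47.8% of all tested genes in either direction. DESeq2 and limma-voom also called 0 higher. With the GC and length trend of each library removed, 8 were lower and 1 higher, and with the length trend alone removed, 9 lower and 4 higher. The median log2 fold change of the 46 was -0.85, against 0.08 over all tested genes, and 17 of the 22 fell at least 2-fold. By type, 8 of 14 H2A, 5 of 12 H2B, 4 of 9 H3, 4 of 8 H4 and 1 of 3 H1 genes fell; with the GC and length trend removed these counts were 1 (and 1 higher), 2, 2, 3 and 0. The HIST1 cluster held 20 of the 22 (of 32 tested), and the 2 others, HIST2H4A and HIST2H4B, were from HIST2 (11 tested). Both treated values lay below both untreated values in 27 of the 46, against 33.1% of all tested genes. Single libraries weighed on the count: it was 13 without untreated replicate 2, 11 without treated replicate 1 and 14 without treated replicate 2.

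In knock-in cells 28 of the 46 fell and 0 rose, where 25.8% of all tested genes fell and 26.4% rose. At an unadjusted p under 0.05, 29 were lower and 0 higher, against 56.9% of all tested genes in either direction. DESeq2 and limma-voom again called 0 higher. With the GC and length trend removed 16 were lower and 0 higher, and with the length trend alone removed 14 lower and 2 higher. The median was -1.09, against 0.12 over all tested genes, and 23 fell at least 2-fold. The 28 were 11 of 14 H2A, 8 of 12 H2B, 4 of 9 H3, 5 of 8 H4 and 0 of 3 H1 genes; 22 were in HIST1 and 6 in HIST2. Without the GC and length trend the counts by type were 3, 6, 4, 3 and 0. The 4 H3 genes in that fit include HIST2H3A and HIST2H3C, which have identical counts and stand for 1 measurement. Treated values lay wholly below untreated values in 37 of the 46, against 36.2% of all tested genes. The count was 17 without untreated replicate 2 or without treated replicate 1, and 10 without the 2 knock-in libraries that held immunoglobulin counts, which leaves 1 library in each knock-in group. In the replicates without those counts the core sum went from 684.9 to 372.2 CPM, and in those with them from 898.2 to 435.4 CPM. In all, 20 genes fell in both lines, 90.9% of the wild-type and 71.4% of the knock-in calls.

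**Figure D2:**
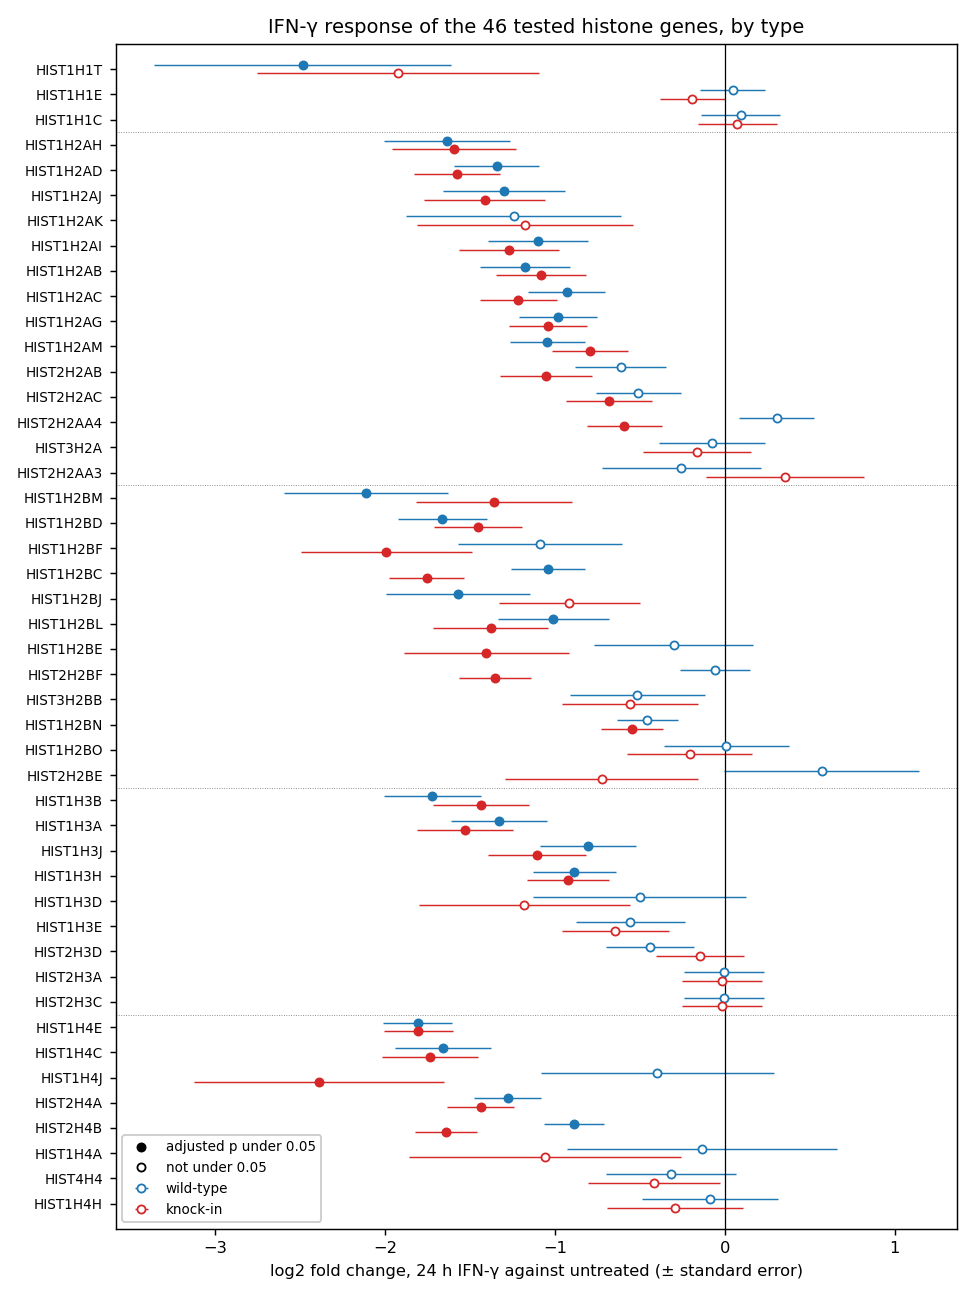
Log2 fold change of each of the 46 tested histone genes after 24 h of IFN-γ (x axis, with standard error) in wild-type (blue) and knock-in cells (red), grouped by type; filled points have an adjusted p under 0.05. Every filled point lies left of 0, 22 in wild-type and 28 in knock-in cells, and HIST1H1C and HIST1H1E sit near 0 at this TMM scaling.

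The H4 gene HIST1H4E (chr6:26204552-26206038, plus strand), in GRCh38 coordinates as for all genes here, which shares almost no sequence with other genes, gave the clearest single fall. It stood at 47.7 and 61.9 CPM in wild-type cells before and 16.6 and 14.7 CPM after IFN-γ, and at 39.0 and 51.9 CPM in knock-in cells before and 11.8 and 14.2 CPM after it. Treated values were well below untreated ones in both lines, with log2 fold changes of -1.81 ± 0.20 (SE; adjusted p = 0.000478) and -1.80 ± 0.21 (adjusted p = 0.000211). HIST1H4C stood at 38.9 and 53.2 CPM in wild-type cells before and 15.8 and 13.3 CPM after IFN-γ, and at 31.8 and 40.3 CPM in knock-in cells before and 7.77 and 13.96 CPM after it. It fell in both lines (log2 fold changes -1.66 and -1.73, adjusted p = 0.002 and 0.000886), without overlap. For the copies HIST2H4A and HIST2H4B the estimates were given separately, though the genes share 98.56% of words. HIST2H4A (chr1:149832659-149839767, plus strand) stood at 38.6 and 54.6 CPM in wild-type cells before and 19.2 and 19.1 CPM after IFN-γ, and at 43.0 and 54.8 CPM in knock-in cells before and 17.3 and 18.8 CPM after it. HIST2H4B stood at 26.5 and 32.6 CPM in wild-type cells before and 15.8 and 16.2 CPM after IFN-γ, and at 31.5 and 35.2 CPM in knock-in cells before and 11.9 and 9.49 CPM after it. Log2 fold changes in wild-type and knock-in cells were -1.28 and -1.44 for HIST2H4A (adjusted p = 0.0014 and 0.000413) and -0.89 and -1.64 for HIST2H4B (adjusted p = 0.00448 and 0.000197). HIST1H4J was near the limit of detection, with 25 and 17 counts in untreated and 11 and 27 in treated wild-type cells, and in knock-in cells 28 and 31 before and 9 and 5 after treatment. Its wild-type groups overlapped (log2 fold change -0.40, adjusted p = 0.683), and in knock-in cells it fell by 2.39 on the log2 scale (SE 0.74, adjusted p = 0.0212). HIST1H4A, HIST1H4H and HIST4H4 passed the test in neither line.

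Among H2A genes, HIST1H2AG (chr6:27133042-27135291, plus strand) had the most counts, at 58.0 and 87.8 CPM in wild-type cells before and 31.9 and 41.9 CPM after IFN-γ, and at 57.7 and 73.2 CPM in knock-in cells before and 28.7 and 35.0 CPM after it. Its treated and untreated values did not overlap, and it fell in both lines (log2 fold changes -0.98 and -1.04, adjusted p = 0.00943 and 0.00438). HIST1H2AC, whose mRNA can also be polyadenylated, stood at 29.7 and 46.9 CPM in wild-type cells before and 19.9 and 20.2 CPM after IFN-γ, and at 36.1 and 45.8 CPM in knock-in cells before and 16.3 and 19.0 CPM after it. It also fell (-0.93 and -1.22, adjusted p = 0.011 and 0.00177). HIST1H2AH, HIST1H2AD, HIST1H2AJ, HIST1H2AI, HIST1H2AB and HIST1H2AM also fell in both lines, with log2 fold changes from -1.63 to -0.79. Once the GC and length trend was removed, HIST1H2AG was the only H2A gene that fell in wild-type cells, and HIST1H2AG, HIST1H2AD and HIST1H2AI fell in knock-in cells. HIST1H2AD and HIST1H2AI have 98.07 and 63.85% of their words in other genes. HIST2H2AB and HIST2H2AC fell in knock-in cells (-1.05 and -0.68). The estimates of the copies HIST2H2AA3 and HIST2H2AA4 moved apart: HIST2H2AA4 had a log2 fold change of 0.31 in wild-type cells (adjusted p = 0.304) and fell by 0.59 in knock-in cells (adjusted p = 0.0483), while HIST2H2AA3 gave -0.26 and 0.35 (adjusted p = 0.7 and 0.567). In knock-in cells HIST2H2AA3 stood at 12.6 and 38.4 CPM before and 32.9 and 32.6 CPM after IFN-γ, and HIST2H2AA4 at 27.1 and 25.3 CPM before and 13.7 and 21.1 CPM after it. Reads are divided between these copies by the estimate, so their separate changes, and every call on HIST2H2AA4, are uncertain. HIST1H2AK and HIST3H2A passed in neither line.

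The H2B gene HIST1H2BD (chr6:26158146-26171349, plus strand), another with a known polyadenylated form, stood at 14.3 and 25.2 CPM in wild-type cells before and 6.68 and 5.80 CPM after IFN-γ, and at 19.4 and 19.8 CPM in knock-in cells before and 7.25 and 7.06 CPM after it. Treated libraries lay below untreated ones in both lines, and it fell in both (log2 fold changes -1.66 and -1.45, adjusted p = 0.00146 and 0.00136). HIST1H2BC (chr6:26114873-26123926, minus strand) stood at 31.03 and 48.9 CPM in wild-type cells before and 19.8 and 19.1 CPM after IFN-γ, and at 42.0 and 45.4 CPM in knock-in cells before and 11.6 and 14.3 CPM after it. It fell in both lines (-1.04 and -1.76, adjusted p = 0.00555 and 3e-04), again without overlap. HIST1H2BM, at 2.07 and 3.26 CPM in wild-type cells before and 0.648 and 0.572 CPM after IFN-γ, and at 2.45 and 4.02 CPM in knock-in cells before and 1.25 and 1.28 CPM after it, fell in both lines as well (-2.11 and -1.36, adjusted p = 0.00824 and 0.0315). HIST1H2BF stood at 4.28 and 9.52 CPM in wild-type cells before and 4.39 and 2.08 CPM after IFN-γ, and at 5.18 and 7.84 CPM in knock-in cells before and 1.28 and 1.995 CPM after it. Its wild-type groups overlapped (log2 fold change -1.09, adjusted p = 0.105), and it fell by 1.99 in knock-in cells (adjusted p = 0.00836). HIST1H2BN, the H2B gene with the highest mean over all 8 libraries, changed less at TMM scaling. It stood at 34.2 and 37.7 CPM in wild-type cells before and 24.9 and 27.5 CPM after IFN-γ. In knock-in cells it stood at 26.7 and 37.5 CPM before and 22.4 and 21.7 CPM after it. Its log2 fold changes were -0.46 (adjusted p = 0.0746) and -0.54 (adjusted p = 0.0305). DESeq2 called it lower in wild-type cells as well (-0.5, adjusted p = 0.0458). With the GC and length trend removed HIST1H2BN fell in both lines (-0.68 and -0.80, adjusted p = 0.0157 and 0.00546). In that fit HIST1H2BD gave -0.855 and -0.67, and HIST1H2BC -0.23 and -0.98. HIST1H2BL fell in both lines (-1.01 and -1.38), HIST1H2BJ in wild-type cells (-1.57) and HIST1H2BE in knock-in cells (-1.40). Of the others, HIST1H2BO, HIST2H2BE and HIST3H2BB passed in neither line.

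Of the H3 genes, HIST1H3H (chr6:27810064-27811300, plus strand) stood at 37.9 and 55.6 CPM in wild-type cells before and 24.1 and 26.5 CPM after IFN-γ, and at 44.4 and 63.0 CPM in knock-in cells before and 23.9 and 32.9 CPM after it. Its groups did not overlap, and it fell in both lines (log2 fold changes -0.89 and -0.92, adjusted p = 0.019 and 0.0102). HIST1H3B, at 24.6 and 43.9 CPM in wild-type cells before and 10.3 and 10.49 CPM after IFN-γ, and at 25.7 and 38.3 CPM in knock-in cells before and 11.5 and 12.2 CPM after it, fell in both lines (-1.72 and -1.44, adjusted p = 0.00183 and 0.00225). HIST2H3C, which has the same stem-loop letters as HIST1H3H and shares its counts with HIST2H3A, did not pass in either line at TMM scaling. It stood at 22.6 and 32.4 CPM in wild-type cells before and 24.2 and 30.7 CPM after IFN-γ. In knock-in cells it stood at 23.4 and 32.7 CPM before and 25.2 and 30.4 CPM after it. Treated and untreated values overlapped, with log2 fold changes of 0.00 ± 0.24 and -0.02 ± 0.23 (adjusted p = 0.996 and 0.96). With ERCC scaling HIST2H3C fell in wild-type cells (-0.79, adjusted p = 0.0176) and gave -0.55 in knock-in cells (adjusted p = 0.0848). With the GC and length trend removed it gave -0.61 in wild-type cells (adjusted p = 0.213) and fell in knock-in cells (-0.97, adjusted p = 0.0496). HIST1H3A and HIST1H3J fell in both lines, with log2 fold changes from -1.53 to -0.81, and HIST1H3D, HIST1H3E and HIST2H3D passed in neither.

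The linker genes HIST1H1C and HIST1H1E, which encode H1.2 and H1.4, did not pass the test at TMM scaling. HIST1H1C (chr6:26055787-26056428, minus strand) stood at 283 and 287 CPM in wild-type cells before and 257 and 352 CPM after IFN-γ, and at 225 and 376 CPM in knock-in cells before and 296 and 337 CPM after it. HIST1H1E (chr6:26156354-26157107, plus strand) stood at 322 and 383 CPM in wild-type cells before and 317 and 412 CPM after IFN-γ, and at 361 and 512 CPM in knock-in cells before and 367 and 398 CPM after it. In both genes the treated and untreated values overlapped in each line. The log2 fold changes were 0.09 ± 0.23 and 0.08 ± 0.23 for HIST1H1C (adjusted p = 0.78 and 0.815) and 0.05 ± 0.19 and -0.19 ± 0.19 for HIST1H1E (adjusted p = 0.871 and 0.445). With ERCC scaling HIST1H1E fell in both lines (log2 fold changes -0.76 and -0.72, adjusted p = 0.0043 and 0.00611), and HIST1H1C fell in wild-type cells (-0.73, adjusted p = 0.0286) and gave -0.45 in knock-in cells (adjusted p = 0.155). HIST1H1T, known as the testis-specific H1, had 31 and 31 counts in untreated and 1 and 12 in treated wild-type libraries, and in knock-in cells 32 and 46 before and 11 and 14 after treatment. It fell in wild-type cells (log2 fold change -2.49 ± 0.88, adjusted p = 0.0496), and in knock-in cells the value was -1.92 ± 0.83 (adjusted p = 0.0801). The wild-type call rested on few counts: its adjusted p ranged from 0.0073 to 0.175 over the other settings, and the value was -1.60 without treated replicate 1 and -5.10 without treated replicate 2.

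**Figure D3:**
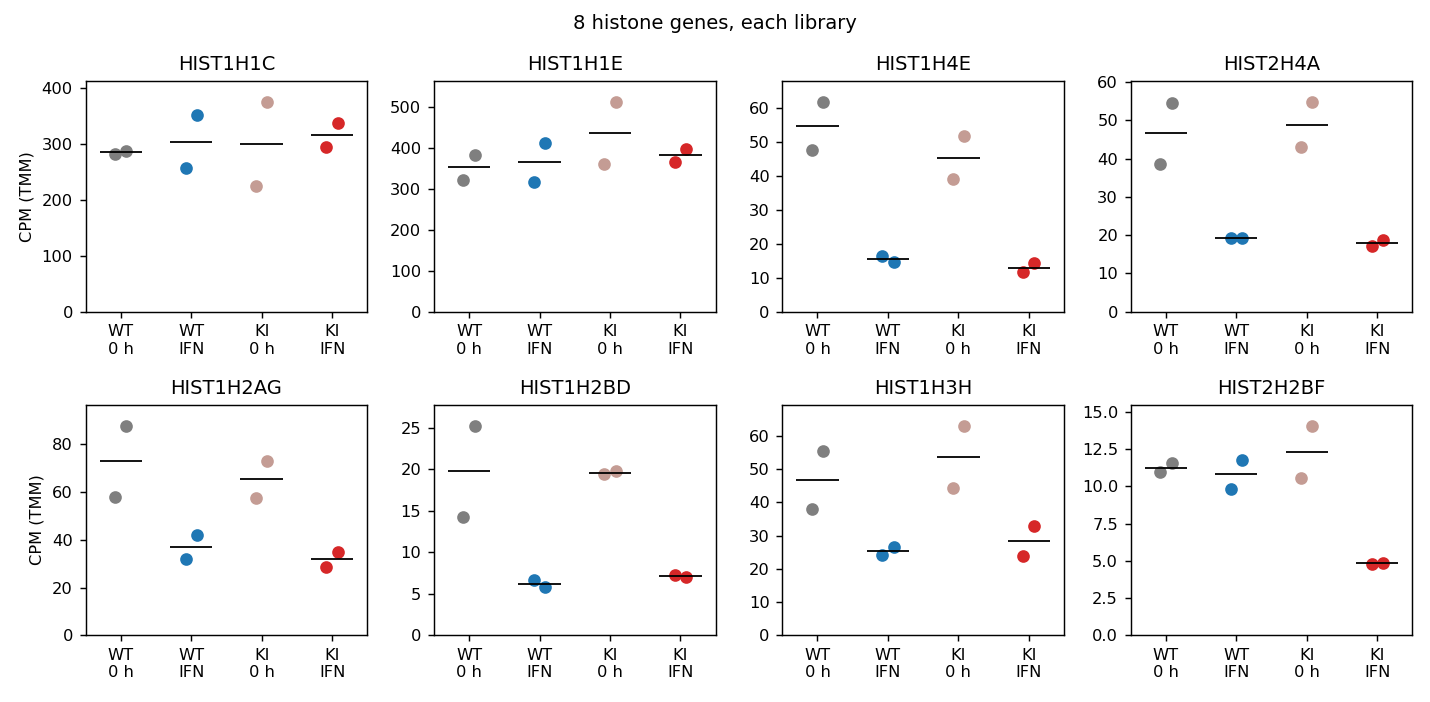
TMM-scaled CPM (y axis) of 8 histone genes in the 4 groups (x axis; WT wild-type, KI knock-in, IFN 24 h with IFN-γ); points are libraries and bars the mean of 2. HIST1H4E, HIST2H4A, HIST1H2AG, HIST1H2BD and HIST1H3H are lower in treated cells of both lines, HIST1H1C and HIST1H1E overlap at this TMM scaling, and HIST2H2BF is low in treated knock-in cells.

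The knock-in line was next set against wild-type cells. Without treatment no histone gene differed at an adjusted p under 0.05 by edgeR, DESeq2 or limma-voom, where 4.17% of all tested genes were lower and 4.26% higher in the knock-in. At an unadjusted p under 0.05 edgeR gave 1 histone gene, against 27% of all tested genes in either direction. This gene, HIST1H2AM, was lower (log2 fold change -0.50 ± 0.22) and was chosen for mention after its value was seen. The median was 0.03, and fold changes ran from -0.66 for HIST3H2A to 0.94 for HIST2H2BE, whose standard error was 0.58. Values of the 2 lines did not overlap in 6 genes, 4 lower and 2 higher in the knock-in, against 25.1 and 25.5% of all genes. After IFN-γ 1 gene was lower in the knock-in and none higher, the H2B gene HIST2H2BF (chr1:149782689-149812373, minus strand), where 1.28% of all tested genes were lower and 1.63% higher. It stood at 10.9 and 11.6 CPM in wild-type cells before and 9.84 and 11.8 CPM after IFN-γ, and at 10.6 and 14.1 CPM in knock-in cells before and 4.80 and 4.87 CPM after it. The treated knock-in libraries lay below all others, and the other 6 overlapped. Of the words of HIST2H2BF 31.38% also occur in other genes. In treated cells the knock-in was lower by a log2 fold change of -1.16 ± 0.21 (adjusted p = 0.0212), and the response was -0.06 in wild-type (adjusted p = 0.854) and -1.35 in knock-in cells (adjusted p = 0.000758). The difference between these responses was -1.30 ± 0.30 and did not pass (adjusted p = 0.688). The call between lines was lost with ERCC scaling (-1.21, adjusted p = 0.0601) and without any 1 of the 4 treated libraries (-1.28 to -1.03, adjusted p = 0.0661 to 0.19), and without both knock-in libraries that held immunoglobulin counts (-1.17, adjusted p = 0.26). With ERCC scaling 0.605% of all tested genes were lower and 0.575% higher in the treated knock-in. With the GC and length trend removed 3 histone genes were lower and none higher, where 3.52 and 4.01% of all tested genes were: HIST2H2BF, HIST1H2BC and HIST2H2AA4.

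For the responses as a whole, no histone gene differed between the lines: 0 of 46, and 0 of all 16519 tested genes, at an adjusted p under 0.05 by edgeR, and 0 histone genes by DESeq2 or limma-voom (the share of all tested genes called by edgeR was 0%). At an unadjusted p under 0.05 there were 4 histone genes, all with the lower response in the knock-in, against 6.77% of all tested genes in either direction. The median difference between responses was -0.11, and 34 of the 46 were below 0. In treated cells the median difference between lines was -0.23, with 22 genes wholly lower and 5 wholly higher in the knock-in libraries, against 29.9 and 27.8% of all tested genes. The 2 responses use different libraries, but leaving out single ones moved their median difference between -0.41 and 0.12.

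Fold changes in these libraries went with GC content and length of the transcript, and the histone genes are short and often rich in GC. Mean GC content weighted by counts was 46.8 to 48.1% in untreated and 49.3 to 49.4% in treated libraries. The tested histone genes had a median GC content of 57.6% (41.9 to 67.4), against 50% over all tested genes, and a median transcript length of 597 bases, against 1610. By type, median GC was 61.8% for H2A, 61.2% for H3, 57.5% for H1, 52.2% for H4 and 51.2% for H2B. Across all tested genes the rank correlation of GC content with log2 fold change was 0.49 in wild-type and 0.65 in knock-in cells, and across the 46 histone genes 0.12 and 0.22; genes of 1 library share its depth and composition and are not independent. With each library's trend on GC and length removed, the calls were 8 lower and 1 higher in wild-type cells and 16 lower and 0 higher in knock-in cells, where 11.8 and 14.8% of all tested genes fell and 14.4 and 18.3% rose. The medians were then -0.36 and -0.67. The gene that rose was HIST2H2AA4 (0.70, adjusted p = 0.0216), a copy whose reads are divided with HIST2H2AA3 by the estimate. Genes that fell in both lines with and without this step were HIST1H2AG, HIST1H2BD, HIST1H3H, HIST1H4E, HIST2H4A and HIST2H4B, and for HIST1H4E the log2 fold changes were -1.46 and -1.31 (adjusted p = 0.000451 and 0.000512). HIST1H4C gave -0.42 and -0.52 (adjusted p = 0.173 and 0.089) and HIST1H2AC -0.28 and -0.34 (adjusted p = 0.257 and 0.155).

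Taken 1 at a time, the 2 trends moved the histone median in opposite ways in knock-in cells. In wild-type cells removing GC alone hardly moved it, from -0.85 to -0.88. With GC alone removed 23 fell in wild-type and 29 in knock-in cells, none rose, and medians were -0.88 and -1.58. Of all tested genes 16 and 19% fell and 15.4 and 19.4% rose in that fit. With length alone removed 9 fell and 4 rose in wild-type cells, 14 fell and 2 rose in knock-in cells, and medians were -0.22 and -0.52. Of all tested genes 20.3 and 26.2% fell and 17.4 and 25.5% rose. Those that rose were HIST1H1C in both lines (0.72 and 0.65), HIST1H1E, HIST2H2AA4 and HIST1H2BO in wild-type cells (0.52, 1.03 and 1.02) and HIST2H3D in knock-in cells (0.76), named here after their values were seen. ERCC scaling moved the median of all tested genes to -0.72 in wild-type and -0.41 in knock-in cells, and gave 35 and 32 histone genes that fell, and none that rose, where 40.8 and 33.1% of all tested genes fell and 1.41 and 3.73% rose, with medians of -1.61 and -1.62. The medians of H2A, H2B, H3 and H4 were below 0 under all 5 scalings in both lines, that of wild-type H3 only just with length removed (-0.05 after -0.56). The H1 median changed sign, from 0.05 to -0.76 with ERCC scaling and -0.48 with GC removed in wild-type cells, and from -0.19 to 0.24 in knock-in cells with length removed. Which part of the histone response goes back to these trends was not tested.

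**Figure D4:**
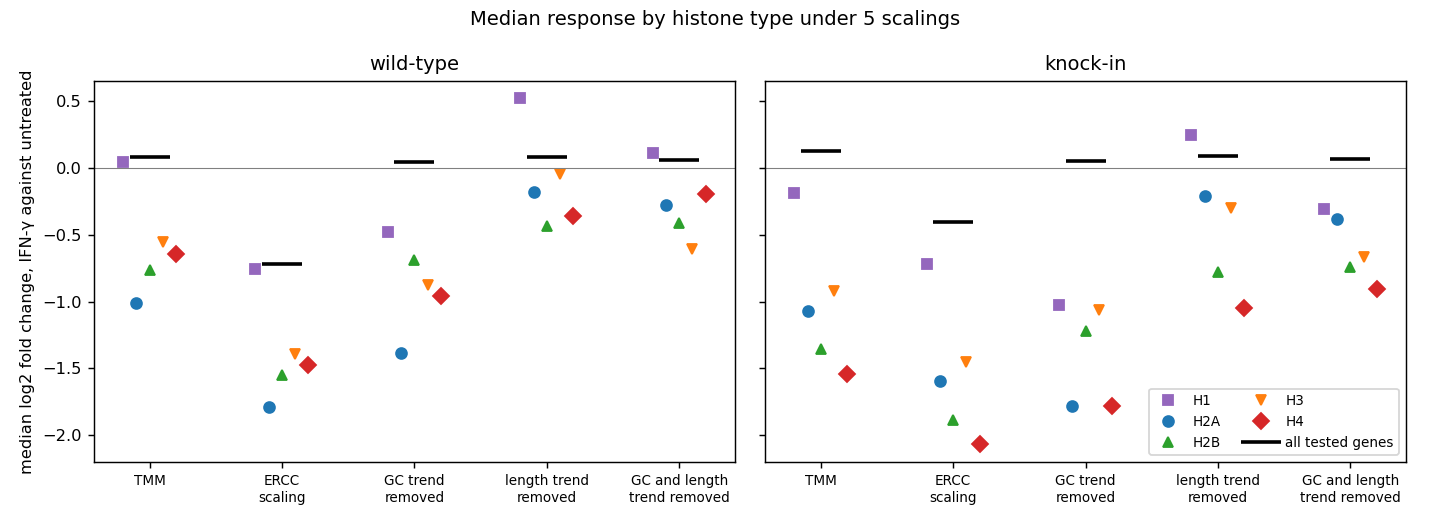
Median log2 fold change after IFN-γ (y axis) of the tested genes of each histone type under 5 scalings (x axis), in wild-type (left) and knock-in cells (right); black bars give the median of all tested genes. Medians of H2A, H2B, H3 and H4 lie below 0 throughout, from -0.05 for wild-type H3 with length removed to -2.07 for knock-in H4 with ERCC scaling, and H1 changes sign.

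Genes that make or process histone mRNA were described from a list of 34, of which 31 were tested. In wild-type cells 8 of them fell and 5 rose, and in knock-in cells 12 fell and 8 rose, with medians of -0.13 and -0.13. Of all tested genes 20.8% fell and 17.1% rose in wild-type and 25.8% fell and 26.4% rose in knock-in cells. Removing the GC and length trend left 6 lower and 8 higher, and 10 lower and 10 higher. NPAT, the histone-specific coactivator that CDK2 and cyclin E switch on, stood at 127.6 and 171.0 CPM untreated and 65.4 and 64.5 CPM treated in wild-type cells, and at 202.7 and 166.8 CPM untreated and 67.2 and 69.5 CPM treated in knock-in cells. It fell in both lines (log2 fold changes -1.20 and -1.43, adjusted p = 0.000867 and 0.000218), with no overlap. CASP8AP2 (FLASH), which joins NPAT at histone locus bodies, fell in both as well (-1.04 and -1.29, adjusted p = 0.00176 and 0.00035). CCNE2, a cyclin E, fell in both lines (-1.63 and -1.88), and so did LSM1, of the mRNA decay machinery (-1.19 and -1.22). The other cyclin E, CCNE1, gave -0.15 in wild-type (adjusted p = 0.6) and rose by 0.64 in knock-in cells (adjusted p = 0.0263). CDK2 gave 0.04 and 0.05 (adjusted p = 0.83 and 0.778). SLBP stood at 185.6 and 207.7 CPM untreated and 136.4 and 160.2 CPM treated in wild-type cells, and at 177.2 and 239.3 CPM untreated and 145.1 and 147.1 CPM treated in knock-in cells. Treated values were below untreated ones in both lines, with log2 fold changes of -0.41 (adjusted p = 0.0765) and -0.51 (adjusted p = 0.0248). LSM10 and LSM11 are proteins of the U7 snRNP, which takes part in processing the mRNA end. LSM10 fell in both lines (-0.44 and -0.41, adjusted p = 0.0465 and 0.0462), and LSM11 gave 0.01 and 0.02 (adjusted p = 0.98 and 0.933). ZNF473, a U7 snRNP partner, gave 0.09 and -0.18 (adjusted p = 0.642 and 0.318), and ERI1, a nuclease that trims the stem-loop end, gave -0.17 (adjusted p = 0.333) in wild-type and fell by 0.63 (adjusted p = 0.00303) in knock-in cells. Subunits of the cleavage factor split. SYMPK and CPSF1 rose in both lines, SYMPK by 0.98 and 1.71 and CPSF1 by 0.91 and 1.53. CPSF3 fell in both (-0.895 and -1.52, adjusted p = 0.0205 and 0.000977), as did CPSF2 (-0.43 and -0.70, adjusted p = 0.0317 and 0.00194). CPSF3 lost its wild-type call with the GC and length trend removed (-0.45, adjusted p = 0.123). With the GC and length trend removed NPAT fell in both lines (-0.57 and -0.52, adjusted p = 0.00258 and 0.0028), SLBP gave -0.36 and -0.44 (adjusted p = 0.0617 and 0.0248), and LSM10 kept its call in knock-in cells (-0.54, adjusted p = 0.0216) and not in wild-type cells (-0.38, adjusted p = 0.096). ERI1 then rose in wild-type cells (0.25, adjusted p = 0.0499) and gave 0.00 in knock-in cells (adjusted p = 0.974), and ZNF473 fell in knock-in cells (-0.76, adjusted p = 0.0023).

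Of 37 DNA replication genes, all tested, 16 fell and 3 rose in wild-type cells (median -0.26), and 18 fell and 7 rose in knock-in cells (median -0.36). Beside these and all lists that follow stand the shares of all tested genes, 20.8% lower and 17.1% higher in wild-type and 25.8% lower and 26.4% higher in knock-in cells. Log2 fold changes in wild-type and knock-in cells, all past the test, were -1.36 and -1.46 for the sliding clamp PCNA, -1.27 and -1.46 for RFC4 and -1.14 and -1.48 for RFC3 of the clamp loader. They were -1.27 and -1.60 for the primase subunit PRIM1 and -1.28 and -1.42 for RPA3 of the single-strand binding complex. With the GC and length trend removed 11 fell and 4 rose in wild-type and 19 fell and 5 rose in knock-in cells, and of the 5 genes just named PRIM1 (-0.20, adjusted p = 0.188) and RPA3 (-0.34, adjusted p = 0.0528) lost their wild-type calls. The 24 tested histone chaperones and assembly factors split, with 8 lower and 9 higher in wild-type and 11 lower and 10 higher in knock-in cells. Among them HAT1, which acetylates new H4, fell in both lines (-1.59 and -1.66), as did the H3-H4 chaperone ASF1A (-1.33 and -1.65), and DAXX (1.29 and 1.17) and TONSL (0.77 and 1.52) rose in both. Removing the GC and length trend gave 4 lower and 6 higher in wild-type and 5 lower and 10 higher in knock-in cells. DAXX then passed in neither line (0.95 and 0.61, adjusted p = 0.0683 and 0.209), and TONSL gave 0.07 in wild-type (adjusted p = 0.658) and 0.33 in knock-in cells (adjusted p = 0.0314). Of the 11 tested genes listed as replication-independent histones, 3 fell and 1 rose in wild-type and 4 fell and 5 rose in knock-in cells. H2AFZ, which encodes H2A.Z, fell in both lines (-1.30 and -1.49), as did the H3.3 genes H3F3B (-0.83 and -1.08) and H3F3A (-0.73 and -1.01). Of these 11, 2 fell and 0 rose in wild-type and 5 fell and 2 rose in knock-in cells once the GC and length trend was removed, and H3F3A lost its wild-type call (-0.27, adjusted p = 0.0635). With ERCC scaling no gene of the 4 lists rose in wild-type cells, and in knock-in cells 2 processing genes, 2 chaperones and 1 replication gene rose. Between untreated lines, ERI1, CCNE2, ASF1A and CDC6 were higher in the knock-in by 0.76, 0.69, 0.74 and 0.60 on the log2 scale and IPO4, H2AFX and H1F0 were lower (-0.998, -0.98 and -0.55), and in treated cells RRM2 was lower (-0.68). With ERCC scaling H1F0 was the only one of these 8 to pass (-0.90, adjusted p = 0.0361); the adjusted p of the other 7 was then 0.0511 to 0.183. Of the 5 tested histone genes known to give polyadenylated mRNA in non-dividing cells (HIST1H1C, HIST1H2AC, HIST1H2BC, HIST1H2BD and HIST2H2BE), 3 fell in each line: HIST1H2AC, HIST1H2BC and HIST1H2BD. Their medians were -0.93 in wild-type and -1.21 in knock-in cells over the 5 genes. Removing the GC and length trend left 1 lower in wild-type (median -0.23) and 2 lower in knock-in cells (median -0.67).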

How the data were processed

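The authors deposited 1 table of estimated counts by Ensembl ID; 58.1% of its nonzero values are not whole (tolerance 1e-06), and they were rounded. The tools named are Trimmomatic and kallisto with GRCh38, per the submitters' processing notes. Their versions and the transcript annotation were not given in the sources used here. Names, GC content, lengths and 31-base words came from GENCODE release 29, and promoters from RefSeq.

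With R 4.3.3 and edgeR 4.0.16, genes passing filterByExpr (minimum count 10) were scaled by TMM (factors 0.86 to 1.134), ERCC spike-ins left out. One quasi-likelihood fit held all 8 libraries with group as the only factor, and p-values were adjusted by Benjamini-Hochberg over 16519 genes (threshold 0.05). Standard errors are fold changes (log2) over the root of F. The fits were tested on simulated counts. Alternatives used DESeq2 1.42.0, limma-voom (limma 3.58.1), ERCC scaling, other filters, loess trends on GC and length (span 0.3), and each library left out. The genes and lists were chosen with earlier results of these data known. Named were the 2 genes with the most counts of each type, up to 6 called genes with the largest change per direction and comparison, SLBP, NPAT and 5 partners, and up to 3 called genes per list and comparison. CCNE1, CDK2, CPSF2 and CPSF3 were named after their values were seen.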

Additional observations from a re-analysis of the deposited data

How the results depend on the processing

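The calls, 22 in wild-type and 28 in knock-in cells and all of them lower, became 35 and 32 with ERCC scaling, 9 (8 lower, 1 higher) and 16 (all lower) with the GC and length trend removed, and 13 (9 lower, 4 higher) and 16 (14 lower, 2 higher) with the length trend alone removed. Medians became -1.61 and -1.62, -0.36 and -0.67, and -0.22 and -0.52 in the same order, and -1.58 in knock-in cells with GC alone removed. HIST2H3A and HIST2H3C, which have identical counts, are both among the 35 wild-type calls with ERCC scaling. They are also both among the 16 knock-in calls with the GC and length trend removed. The trends of GC alone and of length alone were removed as alternatives chosen after seeing the data. Leaving out both knock-in libraries with immunoglobulin counts gave 10 knock-in calls and 0 calls between treated lines. Calls between treated lines numbered 0 with ERCC scaling, 3 with the GC and length trend removed (HIST1H2BC and HIST2H2AA4 beside HIST2H2BF), 2 with no filter (with HIST2H2AA4) and 3 with only the groups compared (with HIST1H2BC lower and HIST2H2AA3 higher); their median was -0.10 with no filter. The cause was not tested.

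Leaving out each library in turn gave 11 to 27 wild-type calls, 17 to 30 knock-in calls, 0 to 1 between untreated lines (HIST1H2AM), 0 to 1 between treated lines and 0 to 0 for the difference between responses. Medians ran from -1.12 to -0.58, -1.19 to -0.86, -0.21 to 0.35, -0.28 to -0.08 and -0.41 to 0.12. Such a fit leaves 1 group with 1 library, assumed to vary like the others.

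Signs turned in genes near 0. HIST1H1C gave -0.73 and -0.45 with ERCC scaling and -0.37 and -0.64 with GC removed in wild-type and knock-in cells, and -0.03 in knock-in cells with only the groups compared. HIST1H1E gave -0.76 with ERCC scaling, -0.48 with GC removed and 0.00 with DESeq2 size factors or test in wild-type cells, and 0.24 with length removed and 0.02 without the immunoglobulin libraries in knock-in cells. HIST2H3C gave 0.01 with limma-voom or at least 50 counts and 0.00 with identical rows kept once in wild-type cells, and 0.00 with at least 50 counts and 0.10 without the immunoglobulin libraries in knock-in cells. With length removed HIST1H3J gave 0.10 in wild-type cells, and HIST2H2AC 0.26, HIST2H2AA4 0.08 and HIST1H2AM 0.13 in knock-in cells; HIST2H2AC gave 0.00 with GC and length removed. Without single libraries HIST1H1C ranged from -0.15 to 0.30 and from -0.25 to 0.49 in wild-type and knock-in cells, HIST1H1E from -0.16 to 0.22 and from -0.42 to 0.08, and HIST2H3C from -0.33 to 0.28 and from -0.24 to 0.24.

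Correlations of the replicate differences between groups were 0.02 to 0.28, the highest between the 2 knock-in groups. In those groups immunoglobulin counts followed the replicate number, at 303.4 and 238.3 CPM in replicate 2 and 0.06 and 0.18 CPM in replicate 1. Low correlations cannot exclude a pairing, and the main fit did not pair the samples. With a replicate block the calls were 22, 28, 0, 1 and 0, and HIST2H3C gave 0.01 in wild-type cells. Having 2 libraries per group limits the precision, and genes under about 10 counts were not tested.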

Other observations

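Histone rows outside the symbol rule also held counts. H2BFS, an H2B gene whose transcript shares 31-base words with HIST1H2BK, is listed under 2 IDs with identical counts, at 7.82 and 8.87 CPM in untreated and 4.24 and 5.27 CPM in treated wild-type libraries, and at 8.08 and 11.2 CPM in untreated and 3.37 and 4.55 CPM in treated knock-in libraries. HIST1H2BK itself is listed at 0 in all 8. The transcribed pseudogene HIST2H2BD stood at 2.62 and 5.11 CPM untreated and 5.23 and 3.72 CPM treated in wild-type cells, and at 3.01 and 3.53 CPM untreated and 3.11 and 2.31 CPM treated in knock-in cells. HIST3H2A and HIST3H2BB each had counts identical to those of an unnamed ID.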
